A study of Equus caballus with 3 samples.

Results

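The peripheral blood (PB)-derived equine mesenchymal stromal cells (MSCs) described here are the barcodes of the PB library that held 2500 to 15000 unique molecular identifiers (UMIs, the tags that count captured transcripts) and at most 3% UMIs of mitochondrially encoded genes. They numbered 5318 of the 6180 PB barcodes, and of 16301 MSCs kept by the same limits over all 3 libraries. The other MSCs were 5403 from adipose tissue (AT) and 5580 from bone marrow (BM) of the same animal, a healthy 10-year-old Warmblood mare, and no group received a treatment. All cells had been grown in culture for 2 passages before single cells were captured on a droplet platform that reads the 3′ ends of transcripts, with 1 library per source. Groups follow the tissue in the sample titles. The source field of the labels reads mononuclear cells of peripheral blood for every library. With 1 library per source, a difference between sources cannot be told apart from a difference between libraries or culture flasks, no value has a replicate check, and no test was run. The exact 95% Poisson intervals of UMI sums and Clopper-Pearson intervals of shares of cells cover counting error only.

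MSCs are fibroblast-like stromal cells that adhere to plastic and can form bone, fat and cartilage, and in the horse they can be grown from venous blood as well as from fat and marrow. Stromal cells from different places in the body keep different sets of active developmental transcription factors in culture, of which the HOX genes, expressed along the trunk and limbs according to position, are the best known. Connective tissue of the head derives largely from cranial neural crest. The front part of this crest, which forms most of the face, is patterned without HOX genes and uses homeobox genes such as those of the MSX, DLX and ALX families.

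The identity of the PB-derived cells was checked against lists of marker genes. All 14 MSC markers on the list had UMIs in PB, among them the intermediate filament gene VIM with 16594 CPM (UMIs of the gene scaled to 1000000 UMIs per library), the collagen gene COL1A1 with 6036 CPM, CD44 with 522 CPM and ENG, which encodes endoglin, with 70.4 CPM. NT5E, which encodes CD73, was at 0.225 CPM in AT, 0.746 in BM and 1.03 in PB. Of 24 leukocyte markers in the matrices, 11 had no UMI in PB, and the list summed to 20.3 CPM against 24.5 CPM in AT and 68.4 CPM in BM. Of its members, CD68 was at 4.85 CPM in PB. CD14 had 1 UMI in all PB-derived MSCs. Endothelial markers summed to 5.73, 2.24 and 3.05 CPM in AT, BM and PB, of which ERG gave 2.67 CPM in PB and PECAM1 0.120 CPM. Platelet and erythroid markers summed to 3.93, 13.2 and 5.86 CPM and epithelial markers to 45.7, 1.62 and 0.0721 CPM. Of the glia and neural crest markers, ERBB3 made up 76.7 of 80.2 CPM, at 92.3 CPM in AT and 63.8 CPM in BM, and 5 of 9 had no UMI in PB.

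The kept cells held between 39980656 and 41622445 UMIs per library, with a median of 6874.5 to 7750 UMIs and 2064 to 2184 genes per cell, so that 3 UMIs correspond to 0.0721 to 0.0750 CPM. The libraries shared barcodes. All 5318 kept PB barcodes also occurred in the AT matrix, where 5279 of them lay below 2500 UMIs with a median of 827 UMIs, and only 37 were kept in both. The kept PB and BM cells had 38 barcodes in common. When cells whose barcode was kept in another library were left out, 106 of 106 genes gained in PB and all but 1 of 146 genes lost in PB, as defined next, kept their call, and without the 74 kept AT cells whose barcode occurred in the PB matrix, 106 of 106 and 146 of 146 did.

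Levels were compared as differences of log2(CPM + 1), a scale that understates changes of low genes, for the 7211 of 29850 genes with at least 10 CPM in at least 1 source. A gene is called gained in PB if it was at least 1 log2 unit (about a doubling) above the higher of AT and BM, and lost if it was at least 1 log2 unit below the lower of both. Of the genes tested, 106 were gained (1.47%) and 146 were lost (2.02%). Each count of gained or lost members of a gene list below is to be read beside these shares. Where levels of the 3 sources are given together, they are in the order AT, BM and PB. The median log2 ratio of all genes tested was 0.03 for PB against AT and -0.20 for PB against BM, and 0.02 against BM after TMM scaling. The median log2 ratio was 1.40 for the gained genes and 1.64 in size for the lost genes, and 23 gained and 53 lost genes were past a 4-fold ratio of CPM + 1, 3 and 14 of them past a 16-fold ratio. At the limit, AXIN2 was just gained with a log2 ratio of 1.0003 and TUBB2B just not with 0.999, and IGFBP7 was just lost with -1.004 and MYH10 just not with -0.999. The counting interval of the ratio stayed past the limit for 76 gained and 113 lost genes. A pseudocount of 25 CPM in place of 1 CPM left 19 gained and 17 lost calls. Where a call is said below to end in a number of alternatives, that pseudocount is not among those counted. Of the gained genes 91, and of the lost genes 128, lie outside the published gene lists of the sources. Those lists hold genes higher in 1 source than in the others, with a limit on the share of cells that was not used here. A gene low in PB could enter them only through AT or BM. Among the gained genes, 35 were also at least 1 log2 unit higher in BM than in AT and 2 the reverse, and among the lost genes these counts were 27 and 37, so that many of the genes that set PB apart also differed between the other sources.

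**Figure D1:**
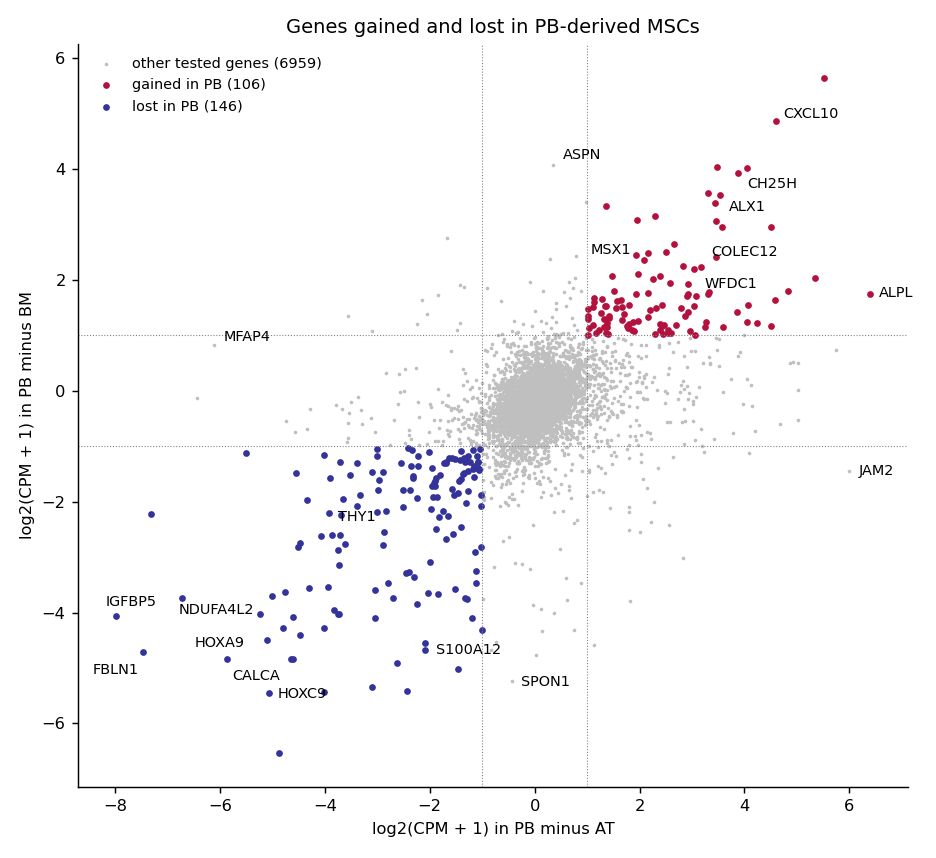
Difference of log2(CPM + 1) between PB and AT (x axis) and between PB and BM (y axis) for the 7211 genes tested, 1 point per gene, with 106 gained genes in red, 146 lost genes in blue and the limits of 1 log2 unit dotted. Gained genes lie in the upper right corner, where CXCL10 and ALPL stand far out, and lost genes in the lower left, where HOXC9, CALCA, FBLN1 and IGFBP5 do.

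The 5 markers WFDC1, MSX1, CRABP2, ALPL and COLEC12 had been chosen for a high level in this library, so their values are a description. WFDC1, a secreted protein with a WAP domain, had 31.1 CPM in AT, 56.3 CPM in BM and 263 CPM (interval 258 to 268) in PB, a 4.67-fold excess over BM. ALPL, the alkaline phosphatase of mineralizing tissue, showed a steeper order, with 2.88, 96.0 and 326 CPM (interval 320.1 to 331) in AT, BM and PB. CRABP2, which carries retinoic acid to its nuclear receptors, was at 115, 191 and 528 CPM (interval 521 to 535). MSX1, a homeobox factor of craniofacial and limb mesenchyme, was at 17.9, 14.7 and 79.6 CPM, and COLEC12, a scavenger receptor of the collectin family, at 4.73, 9.99 and 50.5 CPM. Apart from MSX1, which was lowest in BM, all were lowest in AT. With all cells thinned to 2500 UMIs, a WFDC1 UMI was found in 42.8% of PB-derived MSCs, 6.61% of AT-derived and 11.3% of BM-derived MSCs (before thinning 71.7%, 15.1% and 26.0%). For ALPL these shares were 48.7%, 0.999% and 19.4% (before thinning 76.1%, 1.89% and 36.2%). No cell type known to lack these genes was sequenced, so the contribution of free RNA to such shares was not measured.

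Transcription factors of mesenchyme patterning differed in both directions. Of 24 tested, 3 were gained and 6 lost in PB, beside 1.47% and 2.02% of all genes tested. The marker MSX1, chosen for its high level in this library, is 1 of the 3. Besides MSX1, ALX1, a homeobox factor of the face, was found almost only in PB, with 11.7 CPM (interval 10.7 to 12.8) against 4 UMIs in AT and 4 in BM. HAND2, a basic helix-loop-helix factor of heart, limb and jaw development, was at 0.100 CPM in AT, 7.43 in BM and 25.2 in PB. Its log2 ratio over the higher source was 3.48 among the less cycling and 0.97, short of the limit, among the more cycling cells, which are defined below. Other factors outside this list were gained as well, namely MEF2C, a MADS box factor of muscle and neural crest derivatives, with 13.7, 28.3 and 110.3 CPM, and TCF12, an E protein that pairs with TWIST1, with 11.1, 12.5 and 37.5 CPM. The lost factors included TBX15, with 21.3 CPM in AT, 8.30 in BM and 0.529 in PB, HMX2 (1.68, 13.8 and 0.0961 CPM), GATA2 (25.1, 20.8 and 5.93 CPM), EBF3 and MEIS2. MEIS2 encodes a partner with which HOX proteins bind DNA. MEIS2, at 16.4, 11.9 and 4.61 CPM, was no longer past the limit after TMM scaling. EBF3 was not when cells were thinned to 2500 UMIs, nor HMX2 without the 1% of cells richest in its UMIs. PRRX1, the general factor of limb and facial mesenchyme, was abundant in all 3 sources with 342, 593 and 677 CPM. EBF3, MEIS2 and PRRX1 were named after their values had been seen.

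HOX genes, which mark the position of mesenchyme along the body axis, were nearly undetected in PB. Of 13 tested, 12 were lost in PB, and the remaining member, HOXA3, had no UMI in PB and 0.975 CPM in AT against 12.6 CPM in BM. All 37 annotated HOX genes together gave 16 UMIs in the PB-derived MSCs, or 0.384 CPM (interval 0.220 to 0.624), against 258 CPM in AT and 371 CPM in BM. A HOX UMI was found in 15 PB-derived MSCs, or 0.282% of them (interval 0.158 to 0.465%), in contrast to 81.0% of AT-derived and 88.9% of BM-derived MSCs. This held for each of the 4 clusters. The A cluster on chromosome 4 gave 13 UMIs in PB and 3950 and 5014 in AT and BM, the B cluster on chromosome 11 gave 1 in PB and 1588 and 3693, the C cluster on chromosome 6 gave 2 in PB and 3681 and 5275, and the D cluster on chromosome 18 gave none in PB and 1109 and 936.

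Of the 16 HOX UMIs in PB, 9 came from HOXA10 and 3 from HOXA11. At 0 UMIs in PB were HOXC9, with 32.4 CPM in AT and 42.7 in BM, HOXA9 with 33.5 and 21.6 CPM, HOXC6 with 24.1 and 27.4 CPM, HOXA7 with 23.2 and 27.7 CPM, and HOXB7 with 15.2 and 42.0 CPM. With 3 UMIs over all kept PB cells put in place of 0, HOXC9 was 450-fold lower in PB than in AT and HOXA9 299.6-fold lower than in BM. The exact interval of 0 UMIs in PB reaches slightly higher, to 0.0886 CPM. HOXC10 was higher in AT than in BM (21.2 against 5.69 CPM), whereas HOXA5 (5.20 against 29.0 CPM) and HOXC8 (7.58 against 39.5 CPM) were higher in BM, and none of the 3 had a UMI in PB. HOXA3, HOXA10, HOXA11 and HOXC10 were named after their values had been seen. RF01975, a noncoding RNA feature that the matrices place on chromosome 4, where the A cluster also lies, had 28.2 CPM in AT, 91.6 in BM and no UMI in PB.

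**Figure D2:**
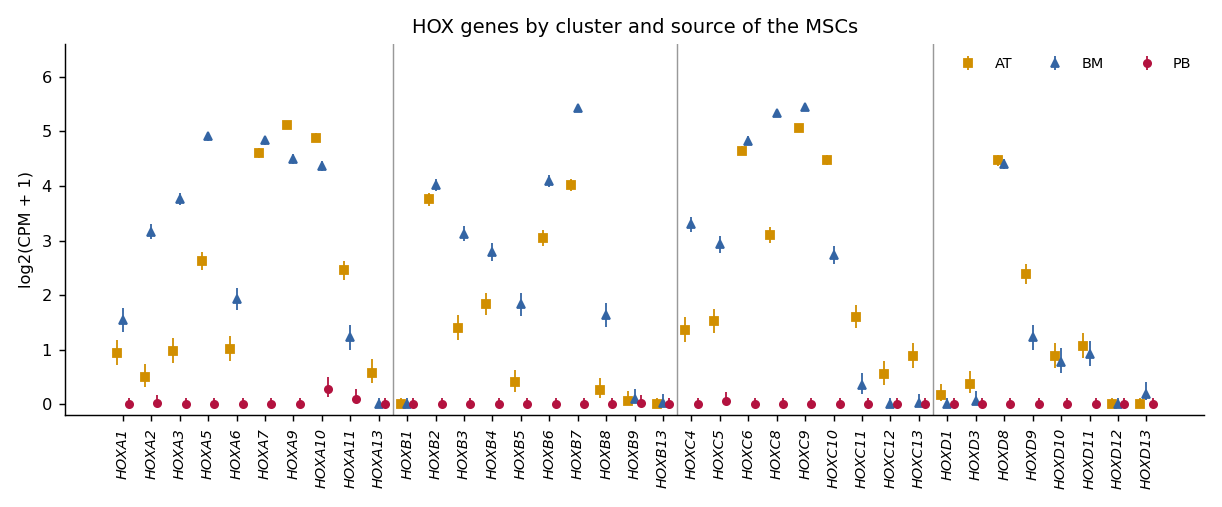
Level of the 37 HOX genes as log2(CPM + 1) in AT (squares), BM (triangles) and PB (circles), ordered by cluster A to D, with grey lines between clusters and bars for exact 95% Poisson intervals. All PB circles lie at or near 0, with HOXA10 at 0.216 CPM as the highest, whereas AT and BM reach 33.5 and 42.7 CPM.

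Genes of osteoblasts, the bone-forming cells, had a median log2 ratio of 2.85 in PB against AT and 0.16 against BM (0.03 and -0.20 over all genes tested). PB was highest of the 3 sources in 8 of 13 tested, beside 1500 of all 7211 genes tested, and lowest in none. Of the 13, 3 were gained, beside 1.47% of all genes tested, and none was lost. In 7, PB and BM were both at least 1 log2 unit above AT, beside 4.02% of all. The marker ALPL, chosen for its high level in this library, is among the 3 and among the 7. PTH1R, the receptor of parathyroid hormone, was at 0.125 CPM in AT, 0.746 in BM and 12.5 in PB (interval 11.4 to 13.6). IFITM5, a membrane protein of osteoblasts, was at 12.5, 13.4 and 35.1 CPM. SP7, the osteoblast factor osterix, reached 33.9 CPM in PB and 23.7 in BM against 0.200 in AT, and TNFSF11, which encodes the osteoclast ligand RANKL, reached 61.2 and 42.6 against 1.05 CPM. In contrast IBSP, a matrix protein of mature bone cells, was at 0.673 CPM in PB and 32.3 CPM in BM. It was the 1 member at least 1 log2 unit below BM in both PB and AT. SP7, TNFSF11 and IBSP were named after their values had been seen. Of the 4 cartilage and tendon genes tested, the matrix glycoprotein TNC was gained (5.18, 61.4 and 139 CPM) and the fibrillar collagen COL11A1 was lost (10.2, 33.0 and 1.37 CPM). Of 10 adipocyte and lipid handling genes, none was gained or lost in PB.

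The WNT pathway signals through β-catenin, which acts on DNA together with LEF1 and TCF proteins and induces AXIN2 as a feedback inhibitor. Of 18 genes of the pathway that were tested, 4 were gained and 4 lost in PB. LEF1 was at 0.350 CPM in AT, 0.770 in BM and 13.8 in PB (interval 12.7 to 15.0), and TCF7 at 1.0005, 15.4 and 56.2 CPM. AXIN2 (0.400, 4.80 and 10.6 CPM) and the ligand WNT7B (0.200, 5.52 and 13.4 CPM) followed the same order of AT, BM and PB. Both fell short of the limit among the more cycling cells, and AXIN2 in 3 other alternatives as well. The lost members were the secreted antagonists SFRP2 (11.7, 43.9 and 2.52 CPM) and DKK1 (11.2, 23.6 and 3.12 CPM), the receptor FZD7 (13.0, 8.55 and 2.62 CPM) and LGR4, a receptor of R-spondins (19.2, 25.5 and 8.02 CPM). The gained members were nuclear factors, a feedback target and a ligand, and the lost members antagonists and membrane receptors. Over all 18, PB was highest in 5 and lowest in 5, beside 1500 and 2764 of the 7211 genes tested. Activity of the pathway was not tested. The receptor FZD1, named after its values had been seen, lay between the other sources with 44.5, 131 and 71.2 CPM.

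Of 9 retinoic acid pathway genes, 2 were gained, CRABP2 and RARG, a nuclear receptor of retinoic acid with 24.3, 38.7 and 92.2 CPM. CRABP2 is a marker chosen for its high level in this library. RARRES1, a membrane protein inducible by retinoids, was lost with 139, 481 and 63.1 CPM.

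Among 21 genes of the TGF-β and BMP pathways, the ligands TGFB1 (19.7, 34.0 and 73.7 CPM) and TGFB3 (21.2, 49.5 and 115 CPM) were gained in PB. TGFB1 was not past the limit after thinning, with an upper limit of 10000 UMIs, by the mean of single-cell CPM or among the less cycling cells. The BMP antagonist CHRDL1 (177, 33.5 and 7.86 CPM) and ID4, a helix-loop-helix target of BMP signals (13.9, 18.9 and 3.44 CPM), were lost. TGFBR3, the co-receptor betaglycan (20.1, 7.18 and 2.98 CPM), was lost too, but its call ended in 4 of the alternatives, among them TMM and median-of-ratios scaling. Of 28 growth factor genes tested, 3 were gained and 2 lost. FGF10, a mesenchymal ligand for epithelia, was at 3.83, 1.22 and 17.8 CPM, and ETV4, a factor induced by FGF signals, at 2.10, 7.78 and 17.0 CPM. The neurotrophin BDNF (28.1, 36.4 and 12.9 CPM), whose call ended in 3 of the alternatives, and the secreted ANGPTL2 (67.3, 76.4 and 24.7 CPM) were lost.

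The insulin-like growth factor (IGF) axis, in which binding proteins hold IGF1 and IGF2 outside the cell, had 4 of 11 tested members lost in PB and none gained. IGFBP5 gave 1 UMI in all PB-derived MSCs, against 258 CPM in AT and 16.2 CPM in BM. IGFBP2 was at 46.7, 21.0 and 0.769 CPM, IGF2 itself at 18.1, 114 and 3.48 CPM, and IGFBP7 at 1.15, 20.4 and 0.0721 CPM (3 UMIs in PB). The call of IGFBP7, at the limit, ended in 6 of the alternatives, while those of IGFBP5, IGFBP2 and IGF2 ended in none. Other binding proteins were not called, with IGFBP4 at 347, 179.8 and 125 CPM and IGFBP6 at 385, 761 and 449 CPM, and the receptor IGF1R was at 28.1, 34.2 and 34.3 CPM. IGFBP4, IGFBP6 and IGF1R were named after their values had been seen.

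Extracellular matrix genes were found on both sides. COL6A3, a chain of the beaded filament collagen VI, was at 29.7 CPM in AT, 214 in BM and 506 in PB, and a UMI of it was in 71.1% of thinned PB-derived MSCs against 7.33% and 40.7%. COL27A1 was gained at lower levels (4.58, 8.15 and 20.9 CPM), and COL11A1 was the only lost member of the 14 collagen genes tested. COL1A1 was close to AT in PB (6259 against 6036 CPM) and lower in BM (2700.4 CPM). The small matrix protein DPT, dermatopontin, was at 8.55, 23.7 and 80.1 CPM, and ITGBL1, a secreted protein related to β integrins, at 31.8, 40.0 and 106 CPM.

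Of 33 matrix glycoprotein and elastic fibre genes, 2 were gained, TNC and COLEC12, and 5 were lost. COLEC12 is a marker chosen for its high level in this library. FBLN1, encoding the elastic fibre protein fibulin 1, was at 232 CPM in AT, 33.4 in BM and 0.312 in PB, 107-fold below BM. THBS1, the adhesive and anti-angiogenic thrombospondin 1, was at 519.6, 386 and 89.999 CPM, and the proteoglycan VCAN, versican, at 115, 120.2 and 31.2 CPM. EFEMP1, or fibulin 3 (92.8, 35.8 and 11.004 CPM), and SVEP1 (96.4, 21.8 and 8.31 CPM), named after its values had been seen, were the other lost members. Among 10 small leucine-rich proteoglycans only OGN was lost (162, 102 and 21.9 CPM), while LUM was at 1089.9, 4095 and 4535 CPM. WISP2, the matricellular protein CCN5, was lost with 621, 226 and 61.0 CPM, as was ANKRD1, a target of YAP (16.6, 8.77 and 0.432 CPM). ANKRD1 UMIs were in 3.23% of BM-derived MSCs, and the 1% of cells with the most held 64.9% of them. Of 50 matrix proteases and inhibitors, the gelatinase MMP9 (2.68, 3.58 and 18.2 CPM) and the membrane-anchored MMP25 (0.0250, 1.12 and 10.3 CPM) were gained, and the plasminogen activator PLAT (41.4, 56.7 and 10.9 CPM) and SERPINB10 (21.8 and 6.06 CPM, no UMI in PB) were lost.

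**Figure D3:**
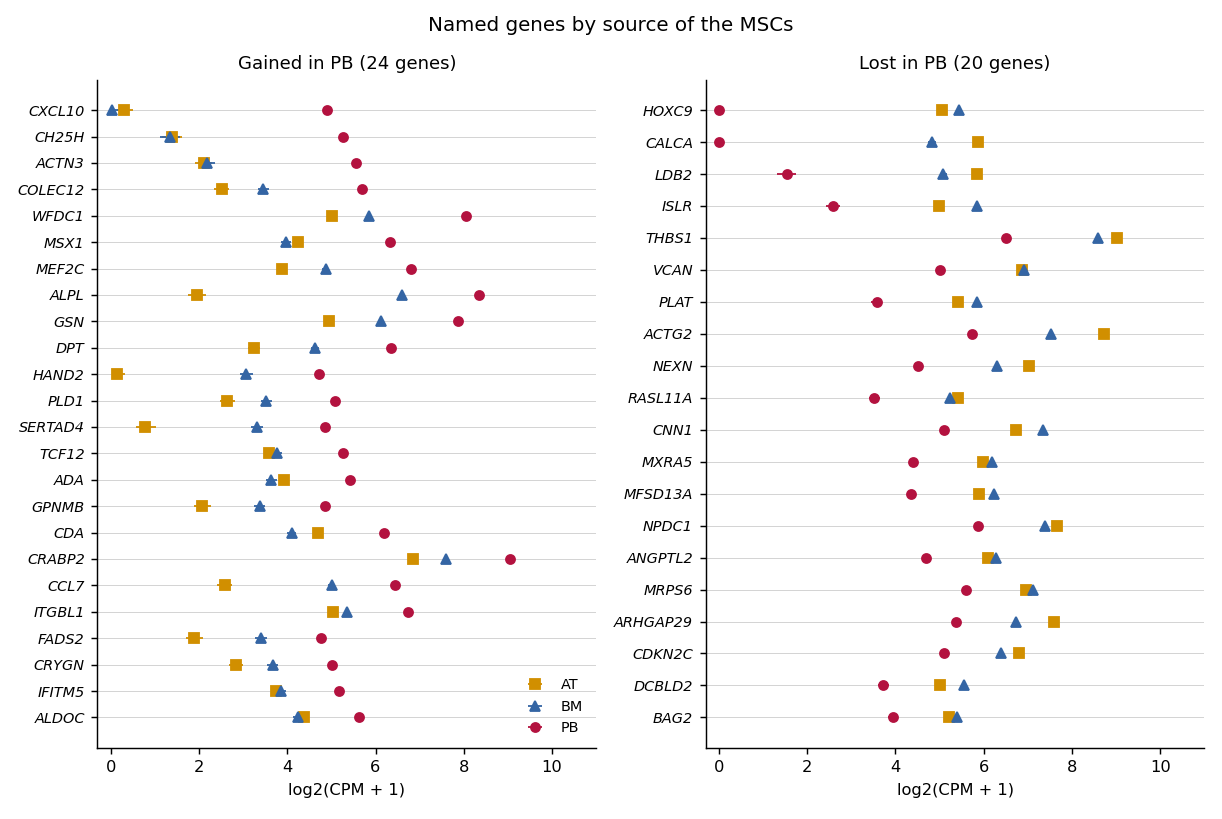
Level as log2(CPM + 1) in AT (squares), BM (triangles) and PB (circles) of 24 gained genes (left, the 5 markers and the gained genes with the largest ratios outside the gene lists of the study) and of 20 lost genes (right), with bars for exact 95% Poisson intervals. In all 24 genes the PB circle lies to the right of both other sources, and in all 20 to the left, with HOXC9 and CALCA at 0.

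Most genes of the smooth muscle contractile apparatus had their lowest level in PB. Of 12 contractile genes, 4 were lost, none was gained, and PB was lowest of the 3 sources in 9, also after TMM scaling, beside 2764 of all 7211 genes tested (2219 after TMM scaling). ACTG2, the γ actin of visceral smooth muscle, was at 422, 184 and 52.4 CPM, CNN1, calponin, at 106, 162 and 33.1 CPM, MYLK, the myosin light chain kinase, at 12.4, 22.7 and 1.44 CPM, and the intermediate filament gene DES at 204, 5.04 and 0.288 CPM. DES UMIs were in 1.86% of BM-derived MSCs, and the 1% of cells with the most held 76.4% of them. The more widely expressed ACTA2 (721, 763 and 613 CPM) and TAGLN (997, 1918 and 1637 CPM), named after their values had been seen, were not past the limit. Actin genes are near-identical in their coding parts, and how reads were shared among them was not examined. The actin-binding NEXN was lost with 129, 77.4 and 21.7 CPM. Actin-binding genes were not all lower, however. GSN, which severs actin filaments, was gained with 29.9, 69.2 and 233 CPM, and ACTN3, the α-actinin of fast muscle fibres, with 3.33, 3.50 and 46.0 CPM. Of 7 genes tested of pericytes, the cells that wrap small vessels, NDUFA4L2 (249, 174 and 8.0005 CPM) and MCAM, which encodes CD146 (3.50, 17.7 and 0.577 CPM), were lost and CSPG4, which encodes NG2 (1.98, 7.38 and 21.6 CPM), was gained.

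Of the 13 MSC markers tested, THY1, which encodes CD90, was the only lost member, with 665 CPM in AT, 531 in BM and 90.5 (interval 87.7 to 93.5) in PB. A THY1 UMI was in 19.4% of thinned PB-derived MSCs against 77.3% and 68.8% (before thinning 45.5%, 94.8% and 92.0%). CALCA, which encodes calcitonin and the neuropeptide CGRP, had 57.1 CPM in AT, 27.4 in BM and no UMI in PB. With 3 UMIs put in place of 0, it was 380.6-fold below BM. LDB2, a partner of LIM domain factors (56.5, 32.9 and 1.90 CPM), ISLR, a secreted leucine-rich protein of stroma (30.4, 56.6 and 4.9973 CPM), and the axon guidance ligand SLIT3 (18.5, 9.62 and 0.456 CPM) were lost as well. The netrin receptor UNC5B was gained in the list of axon guidance genes (5.93, 7.26 and 23.2 CPM). In all, 19 lost genes had no UMI in PB, 11 of them HOX genes, and 53 were below 1 CPM there.

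Chemokines, interferon-stimulated genes and antigen presentation genes had gained members. Of 23 chemokines and cytokines tested, 5 were gained and 1 was lost. CXCL10, a chemokine for T cells induced by interferon, was at 0.225 CPM in AT, 0.0249 in BM (1 UMI) and 28.7 (interval 27.1 to 30.4) in PB, and its neighbour CXCL11 at 0.200, 0 and 10.8 CPM. Both, and CCL20, rested on few cells, as described below. CCL20 (0.725, 0.174 and 18.3 CPM), which attracts lymphocytes and dendritic cells, and CCL7 (4.98, 31.2 and 85.7 CPM), which attracts monocytes, were gained, as was TNFSF8, named after its values had been seen (1.05, 5.04 and 11.5 CPM), which fell short of the limit in 3 of the alternatives. CXCL12, the retention factor for blood stem cells in marrow, was lost with 2.55, 25.4 and 0.553 CPM. Of 11 interferon-stimulated genes, IRF1 (6.40, 5.62 and 18.1 CPM) and GBP1 (1.20, 1.22 and 12.9 CPM) were gained and PB was highest in 8, beside 1500 of the 7211 genes tested (2283 after TMM scaling). Without the 1% of cells richest in its UMIs, GBP1 was at 5.34 CPM in PB, below the 10 CPM at which a gene was tested. Of 12 antigen presentation genes, the immunoproteasome subunits PSMB8 (11.4, 12.6 and 26.8 CPM) and PSMB9 (3.83, 10.7 and 22.8 CPM) were gained with log2 ratios of 1.03 and 1.02, and both fell short of the limit among the more cycling cells, PSMB8 also after thinning and PSMB9 without an upper UMI limit. B2M was at 1129, 1151 and 1781 CPM. Chemokines, GBP and class I genes belong to multigene families, and how reads of near-identical copies were shared was not examined.

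Genes of metabolism were gained singly rather than as lists. CH25H, cholesterol 25-hydroxylase, was at 1.63 CPM in AT, 1.54 in BM and 37.6 (interval 35.7 to 39.5) in PB, 23.1-fold above AT. BNIP3, a receptor for the removal of mitochondria that is induced by low oxygen, was at 528, 575 and 1232 CPM, and its UMIs were in 79.1% of thinned PB-derived MSCs. Of 21 hypoxia response genes, BNIP3 was the gained and NDUFA4L2, a mitochondrial protein also induced by low oxygen, the lost member. PB was highest in 12 of the 21 and lowest in 4, beside 1500 and 2764 of all 7211 genes tested. After TMM scaling these were 14 and 3, beside 2283 and 2219. Of 17 glycolysis genes only ALDOC was gained (19.7, 17.9 and 48.7 CPM), but PB was highest of the 3 sources in 13, also after TMM scaling, beside the 1500 and 2283 of all genes given above, with LDHA at 525, 707 and 1070.0 CPM (named after its values had been seen). The enzymes ADA, adenosine deaminase (14.2, 11.4 and 42.1 CPM), CDA, cytidine deaminase (25.037, 16.2 and 71.6 CPM), PLD1, phospholipase D (5.25, 10.5 and 32.7 CPM), and FADS2, a fatty acid desaturase (2.73, 9.64 and 26.1 CPM), were gained. So was SLC7A11, the cystine importer, with 3.93, 2.81 and 11.004 CPM. Among 81 solute carriers 3 were lost (3.70%, beside 2.02% of all genes tested), SLC22A3, the iron exporter SLC40A1 (7.85, 16.3 and 1.73 CPM) and the ADP/ATP carrier SLC25A4. The call of SLC25A4 ended in 3 of the alternatives, among them TMM and median-of-ratios scaling. Of 24 integrated stress response genes, 1 was gained and none lost, but PB was highest in 16 (14 after TMM scaling), against the same 1500 and 2283 of 7211, and lowest in none, and the list's median was 0.15 against AT and 0.88 against BM.

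Cell cycle genes mostly had their lowest level in PB without being past the limit. None of 28 S phase and 39 G2/M genes was gained or lost, and PB was lowest of the 3 sources in 16 and 33 of them, both before and after TMM scaling, beside 2764 of the 7211 genes tested before and 2219 after it. The lists together made up 0.267% of UMIs in PB, 0.317% in AT and 0.429% in BM. Their medians were -0.05 and -0.27 against AT and -0.99 and -1.04 against BM, the latter beside -0.20 for all genes tested. After TMM scaling the medians against BM were -0.77 and -0.81 beside 0.02. CDKN2C, an inhibitor of cyclin D kinases, was lost with 111, 82.7 and 33.5 CPM. Its level was higher in the more cycling cells of BM and PB, split as given next. In the less and more cycling cells it was at 34.2 and 124 CPM in BM and 14.1 and 51.7 CPM in PB. In AT these levels were 108 and 113 CPM. With each library split at the median share of UMIs on both lists, 95 of the 106 gained genes were past the limit among the less cycling cells, 96 among the more cycling cells and 85 in both.

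Other gained genes were ERRFI1, an inhibitor of the EGF receptor (32.6, 90.7 and 194 CPM), GPNMB, a membrane glycoprotein of melanocytes, osteoblasts and macrophages (3.20, 9.37 and 28.1 CPM), SERTAD4 (0.725, 8.95 and 28.0 CPM) and CRYGN, a crystallin (6.20, 11.8 and 31.1 CPM). RCAN1, an inhibitor of calcineurin, was at 79.3, 65.4 and 162 CPM. Its call ended in 5 of the alternatives, among them TMM and median-of-ratios scaling. Further lost genes were ARHGAP29, which encodes a GTPase activating protein (193, 105 and 40.5 CPM), the matrix protein MXRA5 (62.3, 71.4 and 20.1 CPM), NPDC1 (202, 166 and 57.4 CPM), the mitochondrial ribosomal protein gene MRPS6 (124, 137 and 47.7 CPM), MFSD13A (58.3, 74.3 and 19.4 CPM), the membrane protein DCBLD2 (31.1, 45.7 and 12.3 CPM), the small GTPase RASL11A (41.6, 37.0 and 10.5 CPM) and BAG2, a co-chaperone of HSP70 (36.0, 41.0 and 14.3 CPM). These 8 lost genes all had at least 25 CPM in both AT and BM, a floor that the rule for naming lost genes sets. With a pseudocount of 25 CPM, only NPDC1 and MRPS6 of the 8 kept their call.

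Several broad lists held no gained and no lost member, beside shares of 1.47% and 2.02% over all genes tested. These were the 53 cytosolic ribosomal protein genes tested, 35 lysosome genes, 21 unfolded protein response genes, 20 laminins, integrins, cadherins and syndecans, 19 cholesterol synthesis genes, 16 immediate early genes, 12 heat shock genes, 12 tubulin and neuronal cytoskeleton genes, 7 Notch and Hedgehog genes and 2 complement genes. Of 74 nuclear oxidative phosphorylation genes, only NDUFA4L2 was lost. Of 42 keratins in the matrices 3 were tested, and KRT8 was lost, with 45.4 CPM in AT, 1.22 CPM in BM and 1 UMI in PB, so that the call rested on the low level in BM and ended in 5 of the alternatives, thinning among them.

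**Figure D4:**
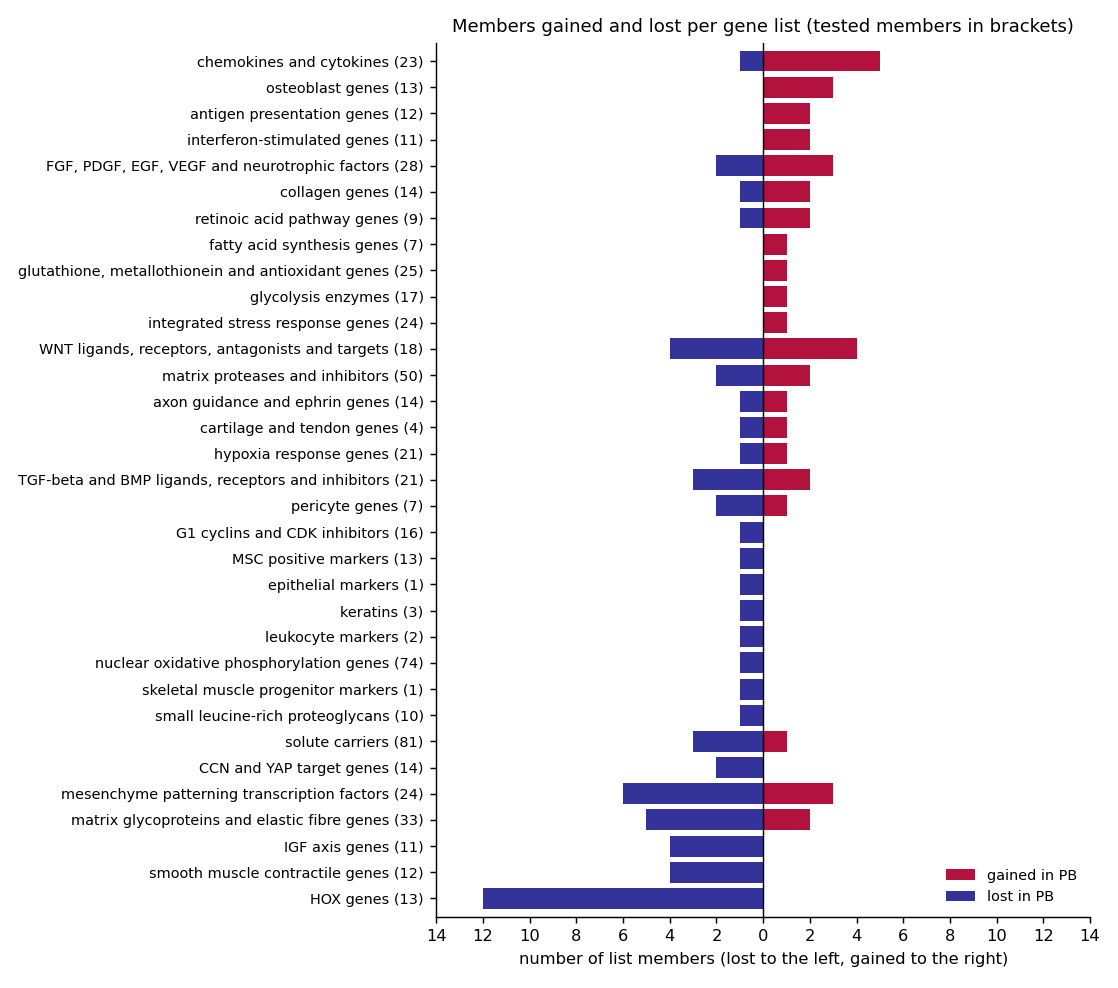
Number of members gained (right, red) and lost (left, blue) in PB for each list with at least 1 such member, with the number of members tested in brackets; a gene can be on several lists. The HOX list reaches furthest to the left with 12 of 13, and chemokines and cytokines furthest to the right with 5 of 23. Of those 5, CXCL10, CXCL11 and CCL20 were not past the limit without the 1% of cells richest in each. Over all genes tested, 1.47% were gained and 2.02% lost.

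Genes in which PB went with BM outnumbered those in which it went with AT. In all, 720 genes differed by at least 1 log2 unit between PB and AT (9.98%) and 599 between PB and BM (8.31%). Of those differing from AT, 429 were higher and 291 lower in PB, and of those differing from BM, 160 were higher and 439 lower, a split that became 245 higher and 295 lower after TMM scaling. PB and BM were both at least 1 log2 unit above AT in 290 genes (4.02%) and both below AT in 118 (1.64%), which by construction are the genes lost and gained in AT. PB and AT were both above BM in 39 genes (0.541%) and both below BM in 199 (2.76%), which are the genes lost and gained in BM. After TMM scaling, the counts shared with BM were 245 above and 152 below AT, and those shared with AT 72 above and 115 below BM.

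The genes that PB shared with BM included JAM2, a junctional adhesion molecule, with 1.60 CPM in AT, 456.3 in BM and 166 in PB, which was also more than 1 log2 unit below BM in both PB and AT, and the monocyte chemokine CCL2 with 16.3, 553 and 560.0 CPM. DLX5, a homeobox factor of the jaw and of bone, was at 0.300, 59.2 and 41.0 CPM, the carbonic anhydrase CA2 at 0.850, 58.1 and 97.7 CPM, and INSC, an adaptor of spindle orientation, at 0.300, 28.8 and 41.1 CPM. In the opposite direction, the microfibril protein MFAP4 was at 179 CPM in AT but 0.472 in BM and 1.61 in PB.

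With AT, PB shared the matrix proteins ASPN, or asporin (303, 22.1 and 389 CPM), and MGP, the matrix Gla protein that inhibits calcification (372, 16.4 and 117 CPM), the homeobox gene GSC (5.03, 0.124 and 10.9 CPM) and the histamine receptor HRH1 (9.70, 1.54 and 12.2 CPM). MGP was at the same time more than 1 log2 unit lower in PB than in AT, and so below AT in both PB and BM. GSC, at a log2 ratio of 0.98 over AT, was just below the limit for a gained gene. Low in PB and AT but not in BM were SPON1, an extracellular spondin (0.475, 40.0 and 0.0961 CPM), and SRGN, the proteoglycan serglycin (6.25, 56.1 and 0.336 CPM), which was lost in PB against both. S100A12, a calgranulin of myeloid cells, showed the same pattern with 6.65, 41.2 and 0.793 CPM and was the only lost leukocyte marker.

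The gained genes differed in how they were spread over the PB-derived MSCs. After thinning to 2500 UMIs, 11 of the 106 had a UMI in at least 25% of cells and 40 in fewer than 5%. This share also rises with the level of a gene, and 36 gained genes were under 20 CPM in PB. Those in most cells were BNIP3 (79.1%), COL6A3 (71.1%) and CRABP2 (65.1%), followed by ALPL, WFDC1 and GSN (39.0%). At the other end, the 1% of cells with the most UMIs of a gene (54 cells) held 50% or more of its UMIs for 6 gained genes, CXCL11, CXCL10, SAA1, CCL20, GBP1 and ENSECAG00000005938, and 25% or more for 11. CXCL10 UMIs were found in 76 cells, or 1.43% of the PB-derived MSCs before thinning. These cells held 1.53% of all UMIs but 98.9% of those of CXCL11, 46.4% of GBP1, 28.3% of CCL20, 11.7% of CCL7 and 9.25% of PSMB9. SAA1, serum amyloid A, an acute phase protein of a multigene family, was found in 74 cells, and the CXCL10 cells held 7.29% of its UMIs. Without the 1% of cells richest in a gene, 101 of 106 gained genes were still past the limit of 1 log2 unit, and the exceptions were CXCL11, CXCL10, SAA1, CCL20 and ENSECAG00000032733. Only 86 of the 106 also kept 10 CPM in at least 1 source. The median ratio of variance to mean of the thinned UMIs was 1.07 for the gained genes and 1.02 for all genes tested, where 1 is the value of counting alone. By this ratio, BNIP3, in 79.1% of cells, was uneven with 3.92. ALX1, in only 3.18% of cells, was at 1.003. SAA1, ENSECAG00000005938 and ENSECAG00000032733 were named after their values had been seen.

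**Figure D5:**
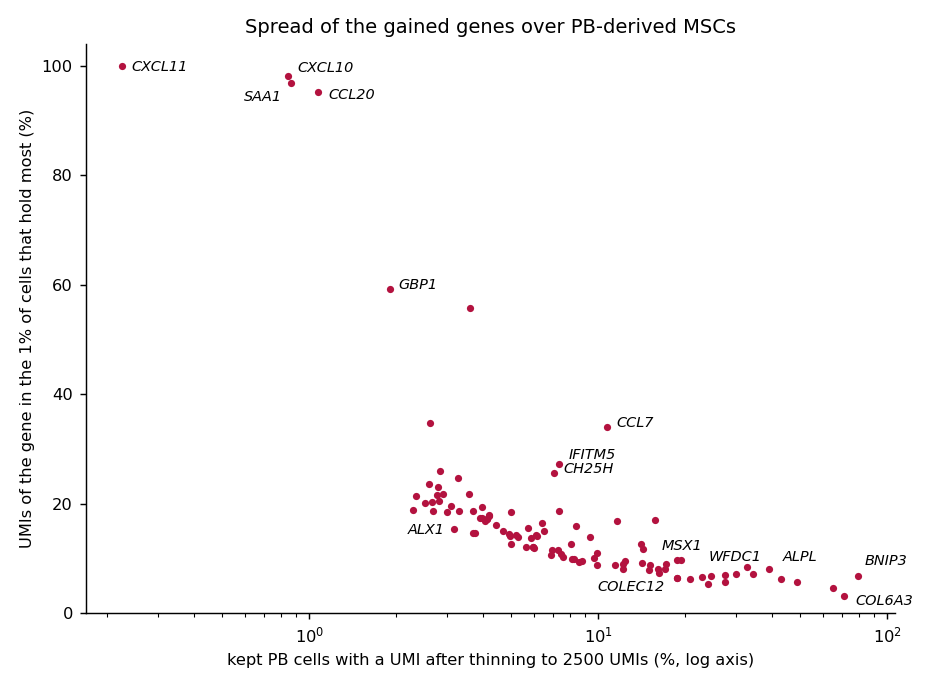
Share of kept PB cells with a UMI after thinning to 2500 UMIs (x axis, log scale) and share of the gene's UMIs held by the 1% of cells with the most of it (y axis), 1 point per gained gene. CXCL11, CXCL10, SAA1 and CCL20 lie at the upper left, found in at most 1.07% of cells, and BNIP3 and COL6A3 at the lower right, found in over 70% of cells.

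The gained and lost genes lay on many chromosomes. By the order of genes in the RefSeq table for a newer horse assembly, used for order alone, 85 gained and 128 lost genes could be placed by symbol among 6286 genes tested. Of the lost genes, 17 stood next to another lost gene in the order of these placed genes, with untested genes between some of them, 11 of them HOX genes, and the others were the pairs IGFBP2 and IGFBP5, ENPP6 and STOX2, and NR5A2 and ZNF281. Of the gained genes, 6 did so, namely CXCL11 and CXCL10, TNFSF8 and TNC, and TRANK1 and STAC. The calls of ENPP6 and STOX2 ended in 2 of the alternatives each, that of ZNF281 in 4 and that of TRANK1 in 1. Apart from CXCL10, CXCL11, TNC, IGFBP2 and IGFBP5, these genes were named after their values had been seen.

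Some of the gained and lost genes carry an identifier without a symbol. ENSECAG00000008979 on chromosome 4 had the largest ratio of the gained genes, with 0.425 CPM in AT, 0.298 in BM and 64.0 in PB. ENSECAG00000040302 on chromosome 2 was at 0.200, 2.51 and 26.2 CPM. On the lost side, ENSECAG00000022273 on chromosome 21 was at 701, 281 and 20.7 CPM, and ENSECAG00000035530 on an unplaced scaffold at 177, 21.7 and 0.697 CPM. In all, 18 gained and 12 lost genes had no symbol.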

How the data were processed

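Single-cell libraries of donor-matched AT-, BM- and PB-derived MSCs were deposited as matrices of UMI counts per gene and barcode. Per the study's methods and the labels, the authors assigned and mapped reads to EquCab3.0 with Cell Ranger and counted UMIs with the End Sequence Analysis Toolkit, which also takes in reads mapped shortly past a gene's end, skips exons shared by genes on opposite strands and scales reads of duplicated features. The authors removed multiplets for their own work, but whether before deposit is not stated, and no doublet caller was run here beyond the upper limit of 15000 UMIs. Counts were summed over kept cells of each library for the 29850 of 29927 genes present in all 3 matrices and scaled to CPM. Depth was between 39980656 and 41622445 UMIs per library. Python 3.11.15, NumPy 2.4.6, pandas 2.3.3 and SciPy 1.17.1 were used, and edgeR 4.0.16 only for TMM factors. The calculations were tested on simulated data.

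Genes were named by rule: the 5 markers, the 20 gained and 20 lost genes with the largest ratios outside the study's gene lists at 25 CPM or more, the 8 of each with the largest CPM difference, up to 4 gained and 4 lost members per list, identity markers with a UMI in PB, 2 gained and 2 lost identifiers without symbol, and the 6 most shared with AT or BM in each direction. Other names are marked as chosen after their values were seen. TUBB2B, MYH10, FAM171A1 and TMEM151A, which carry no such mark, were chosen in the same way. The members and gene lists were chosen with earlier results of these data known. Alternatives were thinning to 2500 UMIs, other cell limits, TMM or median-of-ratios scaling, a pseudocount of 25 CPM, other filters, the mean of single-cell CPM, less cycling cells, and leaving out shared barcodes. Leaving out the AT cells found in the PB matrix, more cycling cells and leaving out the 1% of cells richest in a gene were added after seeing the data. A promoter description could not be run, since no sequences were used here. Some genes that enter the counts are not reported here by name.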

Additional observations from a re-analysis of the deposited data

Results flagged for a closer look

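The kept PB barcodes were also read in the AT matrix, mostly below the limit of 2500 UMIs. Those below it entered no comparison above except the alternative with all barcodes of at least 500 UMIs. In these 5279 AT barcodes, WFDC1 was at 183 CPM, against 31.1 CPM in the kept AT-derived MSCs and 263 CPM in the PB-derived MSCs. ALPL was at 309.8 CPM there, CRABP2 at 534 CPM, MSX1 at 75.9 CPM and COLEC12 at 50.6 CPM, while IGFBP5 was at 9.26 CPM and the HOX genes together at 6.55 CPM. The UMIs of a barcode in AT came to a median of 10.7% of its UMIs in PB. The 876 other AT barcodes below the limit, which were not kept PB cells, lay between for these genes. WFDC1 was at 107 CPM in them, ALPL at 116, CRABP2 at 205, MSX1 at 50.9 and COLEC12 at 30.9 CPM. IGFBP5 was at 106 CPM there and the HOX genes together at 175 CPM. How the shared barcodes came to be in both matrices was not tested.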

How the results depend on the processing

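The counts of genes gained and lost in PB stayed within 1.5 times their value under every cell set, scaling and averaging tried, and 77 of 106 gained and 110 of 146 lost genes stayed past 1 log2 unit in all 13 such settings, with the filter of 10 CPM left as in the report. With the filter applied anew, 86 gained and 126 lost genes kept their call without the 1% of cells richest in a gene. TMM factors gave 115 genes gained and 72 lost in BM, and median-of-ratios factors 120 and 71. A pseudocount of 25 CPM, which shrinks ratios of low genes by construction, left 19 gained and 17 lost in PB, 33 and 53 in AT and 45 and 7 in BM, with 179 genes differing between PB and AT and 127 between PB and BM. Without a filter on low values these were 204 and 235 in PB, 241 gained in AT, 344 gained in BM, 1310 between PB and AT and 1037 between PB and BM, and with a filter of 50 CPM, which tests fewer genes, 34 and 40 in PB, 42 and 108 in AT, 67 and 19 in BM, 246 and 202. No named ratio past the limit turned its direction, and between 0 and 62 of the named ratios moved by more than their counting interval under the 13 settings, against 135 under the larger pseudocount. The cause of the shift in BM was not tested. At least 1 of the scalings ended the call of 5 gained genes, among them ENSECAG00000032733, FAM171A1, RCAN1 and TMEM151A, and of 14 lost genes, among them MEIS2, TGFBR3 and SLC25A4. No paired analysis was possible because each source has 1 library and no result comes from a test. Genes near the limit of 3 UMIs, free RNA and differences between cultures could not be resolved at this depth and design.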
